A study of Mus musculus with 6 samples.

Results

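Chemokines and their receptors were examined in sorted cells of adult mouse hind-limb muscle. Members were the genes whose symbol names a CC, CXC, XC or CX3C chemokine, a receptor of these families or 1 of the atypical chemokine receptors Ackr1 to Ackr4. The rule found 61 of the 24062 genes in the normalised count table, namely 39 ligands, 18 signalling receptors and 4 atypical receptors. A second table, of reads scaled to library size (CPM), held 27 of them (18 ligands and 9 receptors) among its 4939 genes. All mice were C57BL/6, carried a tamoxifen-activated Cre (CreERT2) and the red reporter R26-tdTO+, and were given tamoxifen 3 times, 10 days before the muscle was harvested. Cre was driven from Twist2, a transcription factor gene of mesenchymal cells, in the line Tw2-CreERT2/+;R26-tdTO+, and from Pax7, the marker gene of muscle stem cells called satellite cells, in the line Pax7-CreERT2/+;R26-tdTO+. Freshly sorted tdTomato-positive cells are called Tw2pos (2 libraries) and Pax7pos (1 library), and tdTomato-negative cells of the same lines Tw2neg (2 libraries) and Pax7neg (1 library). The negative cells therefore carry Cre, reporter and tamoxifen exposure too, and are a mixture of cells. They are known from the sample titles, and the labels do not state how they were gated. They need not lack cells of the same kinds as the labelled ones.

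Chemokines are small secreted proteins that attract cells along gradients by binding G protein-coupled receptors. Signalling receptors of the CCR, CXCR, XCR and CX3CR classes are best known from leukocytes, whereas the atypical receptors bind chemokines without the usual G protein signal and remove or redistribute them. In muscle, resident mesenchymal cells, endothelium and macrophages are known sources of ligands, and Cxcl12 with its receptor Cxcr4 is known for the homing and retention of several cell types, satellite cells among them.

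The 4 Twist2 libraries held between 10902318 and 13205751 reads, and the rows of the CPM table between 6016469 and 7565797 reads in the Pax7 libraries. Markers of fibro-adipogenic progenitors, mesenchymal cells of the muscle interstitium, were higher in Tw2pos for 11 of 13 genes. Every measured marker of macrophages and monocytes (17), neutrophils (12) and lymphocytes (12) was lower in Tw2pos, as were 10 of 14 endothelial ones, in a fit where 38.6% of 14155 genes passed. The macrophage list includes the members Ccr2 and Cx3cr1, and the neutrophil list the member Cxcr2. Leukocyte RNA was not absent from Tw2pos: the macrophage list summed to 3392 and 4583 normalised counts there against 74629 and 110681 in Tw2neg. In Pax7pos the summed satellite cell markers reached 6478 CPM, against 1196 and 1319 in Tw2pos and 677 in Pax7neg, and the fibro-adipogenic markers 5279 CPM, against 69135 and 76989 in Tw2pos. Whether the 2 replicates are 2 animals is not stated in the labels, and the p-values cover only how far these libraries differ, possibly for technical reasons.

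Between labelled and unlabelled cells of the Twist2 line, ligands went both ways and signalling receptors went 1 way. Of 27 ligands with a mean of at least 10 normalised counts, 5 were higher in Tw2pos and 13 lower, while 9 did not pass. All 16 signalling receptors tested were lower, 2 atypical receptors were higher and the other 2 did not pass. Over all 14155 genes tested, 18.7% were higher and 20.0% lower (limma on log2 of the normalised count plus 1, Benjamini-Hochberg adjusted p under 0.05). The higher ligands, 5 of 27, were thus no more frequent than higher genes at large. The median log2 difference was −0.87 over the tested ligands, −4.74 over the tested receptors of both kinds and −0.04 over all genes. The split of all calls was 2645 higher and 2825 lower, against 1607 and 5257 under library total scaling, which moved the median of all genes to −0.49. In bulk RNA, fewer cells of a type and less RNA per cell cannot be told apart. Of the 47 members tested, 14 (3 ligands and 11 receptors) reached the minimum mean only through Tw2neg and none only through Tw2pos, so that the counts of lower members are in part set by the filter. The higher count of 7 members fell without either Tw2pos replicate or Tw2neg replicate 2 and rose without Tw2neg replicate 1. The count of all higher genes moved the same way in each of these fits. The lower count of 29 members did not rise in any of them.

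**Figure D1:**
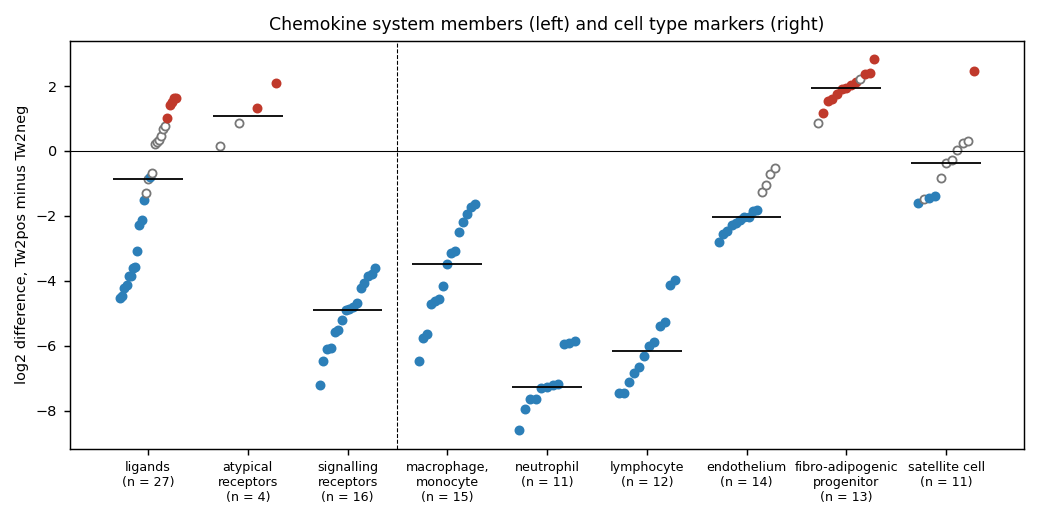
Log2 differences between Tw2pos and Tw2neg (y axis) of the chemokine ligands, atypical receptors and signalling receptors that were tested, beside markers of 6 cell types; each point is 1 gene, filled where it passed the test (red higher, blue lower), and the line is the median. The signalling receptors lie between −7.20 and −3.59, in the range of the leukocyte markers, while ligands extend from −4.54 to 1.64; marker genes that are themselves members are left out of the marker columns.

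The neutrophil-attracting ligands Cxcl1, Cxcl2 and Cxcl3 did not move together. Cxcl1 (GRCm38 chromosome 5, 90891241 to 90893115, plus strand) had 8710.1 and 10096 normalised counts in Tw2pos and 4294 and 2909.7 in Tw2neg. Both labelled libraries were above both unlabelled ones, with a log2 difference of 1.41 (SE 0.27, limma adjusted p = 0.0114). Its neighbour Cxcl2 (90903871 to 90905938, plus strand), which starts 10.8 kb beyond the end of Cxcl1, had 352 and 534 normalised counts in Tw2pos and 1701 and 2583 in Tw2neg. Here the order was the opposite, with a log2 difference of −2.27 (SE 0.30, adjusted p = 0.0033). Cxcl3 (90786103 to 90789600, plus strand) had 4 and 17 reads in Tw2pos and 135 and 221 in Tw2neg, again lower in the labelled cells (−3.61, SE 0.65, adjusted p = 0.0090). Without Tw2pos replicate 2 Cxcl1 no longer passed (adjusted p = 0.0784), and without Tw2neg replicate 2 Cxcl3 did not (−3.27, adjusted p = 0.0535). Cxcl5, of the same gene block, ranged from 12.7 to 54.3 normalised counts in Tw2pos, on both sides of its values in Tw2neg, and did not pass (adjusted p = 0.734). Cxcr2, the receptor of these ligands on neutrophils, had 2 and 6 reads in Tw2pos and 634 and 567 in Tw2neg, so Cxcl1 was high in the libraries where that receptor was nearly unread. The neutrophil marker list, which includes Cxcr2, summed to 585 and 394 normalised counts in Tw2pos and 80216 and 72752 in Tw2neg, with Cd177 at 0 in Tw2pos replicate 2. Its part in the Cxcl2, Cxcl3 and Cxcr2 differences was not tested.

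The 250 bases before the RefSeq start of these 3 genes (GRCm38.p6) are shown because the neighbours differ in direction while sharing a sequence element. Capitals mark GGGAATTTCCC, the longest run of letters that all 3 windows hold and a form of the element bound by NF-kappaB, the factor that switches on many chemokine genes in inflammation. The windows are chr5:90890995-90891244 for Cxcl1, chr5:90903649-90903898 for Cxcl2 and chr5:90785851-90786100 for Cxcl3, all on the plus strand.
Cxcl1: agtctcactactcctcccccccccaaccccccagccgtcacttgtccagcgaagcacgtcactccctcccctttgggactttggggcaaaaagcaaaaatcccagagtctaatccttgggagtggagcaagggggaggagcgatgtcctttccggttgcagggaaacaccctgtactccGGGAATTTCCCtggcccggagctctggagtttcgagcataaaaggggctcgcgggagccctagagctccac
Cxcl2: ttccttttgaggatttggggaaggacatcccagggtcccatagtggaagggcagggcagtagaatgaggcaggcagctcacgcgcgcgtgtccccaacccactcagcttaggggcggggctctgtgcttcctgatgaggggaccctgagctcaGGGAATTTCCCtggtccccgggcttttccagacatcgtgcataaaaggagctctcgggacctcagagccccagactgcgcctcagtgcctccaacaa
Cxcl3: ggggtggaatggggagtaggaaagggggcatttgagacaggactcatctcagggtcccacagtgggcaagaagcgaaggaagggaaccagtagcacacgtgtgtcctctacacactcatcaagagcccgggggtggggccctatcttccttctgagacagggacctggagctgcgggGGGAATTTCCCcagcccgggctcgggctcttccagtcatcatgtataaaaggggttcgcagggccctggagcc
The marked element lay at −71 to −61 from the start of Cxcl1, −97 to −87 from that of Cxcl2 and −73 to −63 from that of Cxcl3. On either strand these exact letters were found in 14 of 32851 such windows of all genes (0.0426%), and among the 45 members with a window only in these 3. That these 3 hold them follows from how the letters were picked. The counts do not cover other forms of the element, which other members may hold. TATAAA, on either strand, was in 12.4% of all windows and in those of 14 members, Cxcl3 among them but neither Cxcl1 nor Cxcl2. The windows and letters were chosen after the values were seen, shorter and looser forms of the element were searched too and are not reported, and a match describes letters only.

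Cxcl1 was the leading ligand per length of exon. It took 33.0% and 29.9% of the summed ligand signal per kilobase in the Tw2pos libraries, at 4645 and 5385 normalised counts per kilobase, followed by Ccl11 (2943 and 3598) and Ccl7 (1853 and 2789). Cxcl14 and Ccl2 came next and changed places between the 2 libraries. In Tw2neg Cxcl1 still led, with 18.7% and 12.0%, but the ligands behind it were Ccl11 in replicate 1 and Ccl4 and Ccl5, ligands of activated leukocytes, in replicate 2.

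Ligands of the monocyte and eosinophil receptors formed most of the rest of the higher set. Ccl11, or eotaxin (chromosome 11, 82057823 to 82062955, plus strand), had 3185 and 3893 normalised counts in Tw2pos and 1282 and 993 in Tw2neg. The groups did not overlap and differed by 1.64 (log2, SE 0.22, limma adjusted p = 0.0035). Ccl7, a ligand of Ccr2 and other monocyte receptors, had 1484 and 2234 against 761 and 538 (1.51, SE 0.28, adjusted p = 0.0096). Ccl2, the principal Ccr2 ligand, had 1549 and 2279.5 against 1203 and 706 (1.03, SE 0.32, adjusted p = 0.0480). Both were higher in each labelled library than in either unlabelled one, but the Ccl2 call was lost in 10 of 14 other settings, among them edgeR (adjusted p = 0.0530), library total scaling (0.58, 0.130) and the fits without Tw2pos replicate 1 (1.31, 0.0521), Tw2pos replicate 2 (0.75, 0.245) or Tw2neg replicate 2 (0.64, 0.140). Ccl7 was lost without Tw2pos replicate 2 (1.21, 0.0519). Ccl8, another monocyte attractant, had 169.6 and 267 against 159 and 96.7. Its groups did not overlap either, but it did not pass (0.77, limma adjusted p = 0.134). Ccl12, which ranged from 7.24 to 31.7 over the 4 libraries, did not pass. Cxcl14, a ligand of many epithelia and fibroblasts whose signalling receptor is debated, had 2700.2 and 3199.7 against 1077 and 828 (1.64, SE 0.21, adjusted p = 0.0033).

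**Figure D2:**
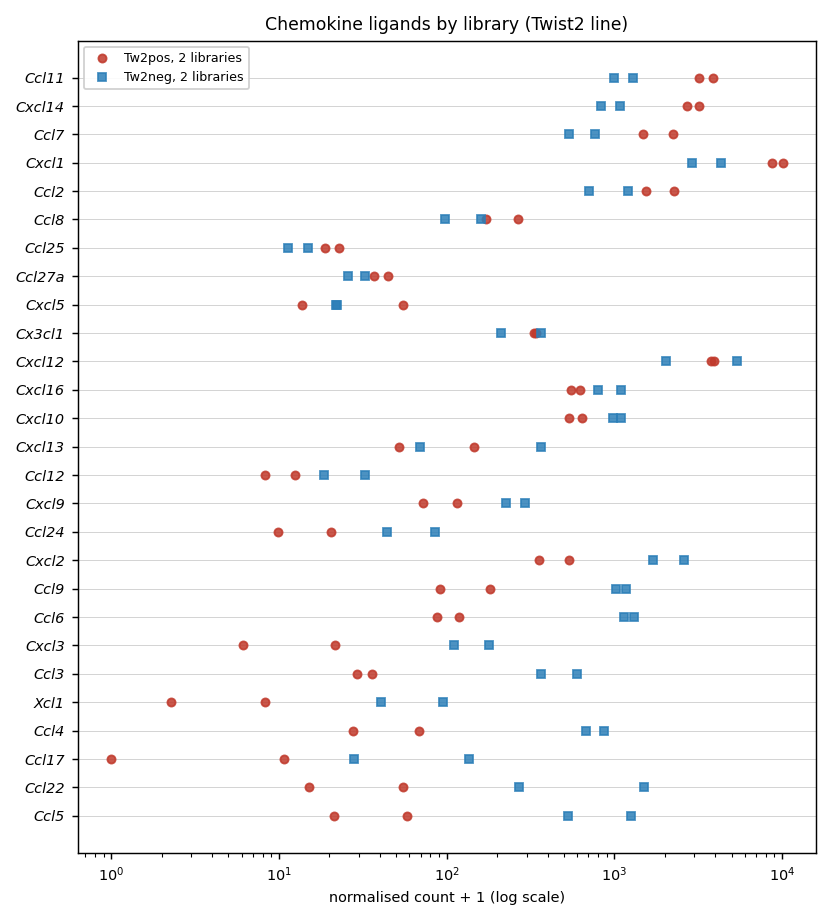
Normalised counts plus 1 (log x axis) of the 27 tested ligands in each Twist2 library, ordered by the log2 difference; red circles are Tw2pos and blue squares Tw2neg. Ccl11, Cxcl14, Ccl7, Cxcl1 and Ccl2 have both labelled libraries on the right, and from Cxcl9 downwards both labelled libraries lie on the left.

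Cxcl12, the homeostatic ligand of Cxcr4 and Ackr3, was abundant on both sides of the sort. It had 3936 and 3788 normalised counts in Tw2pos and 5382 and 2028 in Tw2neg, so the unlabelled libraries lay on either side of the labelled pair. Its difference of 0.22 did not pass (adjusted p = 0.717) and turned under library total scaling (−0.22), quantile normalization (−0.049) and without Tw2neg replicate 2 (−0.48), whereas it passed without Tw2neg replicate 1 (0.93, adjusted p = 0.00917). The endothelial marker sum differed between the same unlabelled libraries, at 56952 in replicate 1 and 20401 in replicate 2, against 12850 and 9306 in Tw2pos; its part in the Cxcl12 values was not tested. Cx3cl1, the membrane-bound ligand of Cx3cr1, had 331 and 341 against 366 and 210.3, and its difference of 0.28 (adjusted p = 0.493) turned under library total scaling (−0.17) and without Tw2neg replicate 2 (−0.12). Cxcl16, the membrane-bound ligand of Cxcr6, had 547 and 625 against 795 and 1092 and just missed the threshold (−0.67, adjusted p = 0.0542). It passed under library total scaling (−1.12, 0.00707) and without Tw2neg replicate 1 (−0.90, 0.0120). Cxcl13, the B cell attractant, ranged from 51.0 to 145 in Tw2pos and from 68.3 to 365 in Tw2neg (adjusted p = 0.450).

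Ligands known from activated macrophages, dendritic cells and lymphocytes were lower in the labelled cells. Ccl5, a T cell and macrophage product, had 20.4 and 56.7 normalised counts in Tw2pos and 529 and 1258 in Tw2neg (log2 difference −4.54, SE 0.59, limma adjusted p = 0.0033). Ccl3 and Ccl4, the macrophage inflammatory proteins, differed by −3.85 and −4.13, and the myeloid ligands Ccl6 and Ccl9 by −3.58 and −3.09. Ccl6 had 86.7 and 118 normalised counts in Tw2pos and 1139 and 1317 in Tw2neg. In each of these 5 genes both labelled libraries were below both unlabelled ones. The share of all genes without overlap between the groups is not given, here or for the other members. Separation of the libraries therefore only describes the values and is not read as a result about the members. Ccl22, a dendritic cell ligand of Ccr4, was at −4.47 and missed the threshold without Tw2neg replicate 2 (−3.23, adjusted p = 0.0538). Ccl17, the other Ccr4 ligand, had 0 and 8 reads in Tw2pos against 33 and 169 (limma adjusted p = 0.0431). Xcl1, a lymphocyte ligand, had 1 and 6 reads against 49 and 118 (adjusted p = 0.0128), and Ccl24, an eosinophil attractant made by macrophages, was at −2.12. The interferon-induced ligands of Cxcr3 showed smaller differences. Cxcl10 had 538 and 643 against 977 and 1099 (−0.82, adjusted p = 0.0192), and Cxcl9 had 113 and 71.2 against 291 and 225 (−1.50, adjusted p = 0.0147). Cxcl10 did not pass without Tw2pos replicate 1 (−0.69, 0.207) or 2 (−0.94, 0.0940), and Cxcl9 not without Tw2pos replicate 2 (−1.17, 0.105).

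Signalling receptors were low in Tw2pos throughout. Cxcr4 (chromosome 1, 128588199 to 128592293, minus strand) had 109.6 and 135 normalised counts in Tw2pos and 3280.5 and 6306 in Tw2neg, a log2 difference of −5.21 (SE 0.33, limma adjusted p = 0.000482). Ccr7, which guides T cells and dendritic cells to lymph nodes, had 40.8 and 65.1 against 1968 and 6729 (−6.11, SE 0.57, adjusted p = 0.0013). The B cell receptor Cxcr5 had 5 reads in each labelled library against 705 and 2454, with a fitted difference of −7.20. Both labelled libraries were below both unlabelled ones in each of these 3 receptors, and the 2 unlabelled libraries themselves differed, replicate 2 being the higher. Ccr2, the receptor of inflammatory monocytes, had 14.0 and 16.9 against 619.7 and 971 (−5.57), and Ccr1 33.1 and 45.8 against 587 and 768 (−4.07). Cx3cr1, a macrophage and monocyte receptor, had 8.92 and 7.24 against 127 and 92.0, the smallest fitted difference of the 16 (−3.59). The lymphocyte and mucosal receptors Ccr4, Ccr6, Ccr8, Ccr9 and Cxcr3 had between 2 and 12 reads in a Tw2pos library, and their fitted differences of −5.51 to −3.78 depend on the pseudocount. Some receptors had 3 reads or fewer over both Tw2pos libraries and get no fold: Xcr1, of cross-presenting dendritic cells, had 1 and 0 reads against 47 and 63, and Ccr3, the eotaxin receptor, 3 and 0 against 49 and 115. Cxcr6 had 0 and 14 reads against 204 and 596, and its call was lost with DESeq2 (adjusted p = 0.0655) and without Tw2neg replicate 2 (0.0964). The pan-leukocyte marker Ptprc, with 135 and 226 normalised counts in Tw2pos and 6237 and 12121 in Tw2neg, differed by −5.63. The lymphocyte list summed to 106 and 219.5 normalised counts in Tw2pos and 7679 and 16698 in Tw2neg, with Klrb1c at 0 in Tw2pos replicate 2. Marker sums of lymphocytes, macrophages and neutrophils were thus low in the same libraries as the receptors, and their part in the receptor differences was not tested. The macrophage sum itself includes Ccr2 and Cx3cr1, and the neutrophil sum includes Cxcr2.

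The atypical receptors stood apart from the signalling ones. Ackr3, the scavenger of Cxcl12 also called Cxcr7 (chromosome 1, 90203980 to 90216751, plus strand), had 6974 and 6998 normalised counts in Tw2pos and 5102 and 2880.1 in Tw2neg. The labelled libraries were both higher, but the difference of 0.87 did not pass (SE 0.31, limma adjusted p = 0.0741). It passed with DESeq2 (0.81, adjusted p = 0.0390) and without Tw2neg replicate 1 (1.28, adjusted p = 0.00592). Ackr4, which scavenges Ccl19 and Ccl21, had 233 and 268 against 79.7 and 42.4 (2.08, SE 0.36, adjusted p = 0.0077). Ackr2, the scavenger of inflammatory CC ligands, had 277 and 298 against 121 and 109.5 (1.31, SE 0.22, adjusted p = 0.0072), a call lost without Tw2pos replicate 1 (1.36, 0.0646) or 2 (1.26, 0.0916). In both genes the groups did not overlap. Ackr1, a chemokine-binding protein of venules and red cells, had 585 and 749 against 749.8 and 477, and its difference of 0.15 (adjusted p = 0.695) turned under library total scaling (−0.30) and without Tw2pos replicate 2 (−0.03) or Tw2neg replicate 2 (−0.18). Per kilobase of exon, Ackr3 made up 75.8% and 71.2% of the summed receptor signal in Tw2pos and Ackr1 15.2% and 18.2%, while in Tw2neg Cxcr4 led with 30.4% and 34.0%. Exons of Ackr1 overlap those of Cadm3 on the same strand, and Ackr4 overlaps Acad11 on the other. No source used here gives the strand of counting, so levels of these genes, and of Cxcl16, Cxcl10, Cxcr5, Cx3cr1, Xcl1, Ccr9, Ccl25 and Ccl27a, which also overlap a neighbour's exons, are uncertain.

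**Figure D3:**
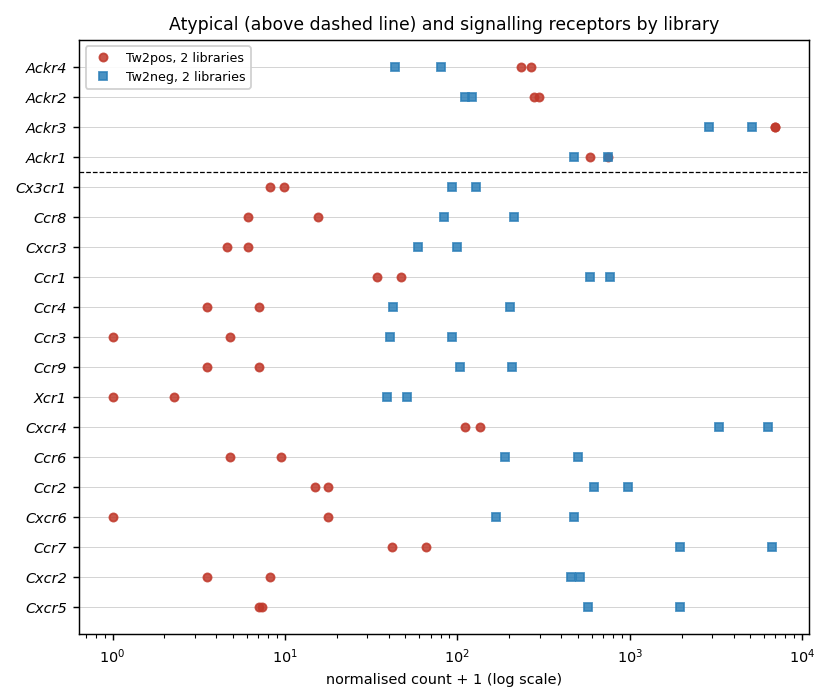
Normalised counts plus 1 (log x axis) of the atypical receptors (above the dashed line) and 15 of the 16 tested signalling receptors (below it) in each Twist2 library; red circles are Tw2pos and blue squares Tw2neg. The signalling receptors plotted have both labelled libraries to the left, Cxcr4 at 109.6 and 135 against 3280.5 and 6306, and Ackr4, Ackr2 and Ackr3 have both to the right.

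Directions were also read in gene order, with blocks chosen after the values were seen. Over all genes of this fit 18.7% were higher and 20.0% lower. On chromosome 11 the members from Ccl2 to Ccl1 (82035571 to 82305690) counted 3 higher, 0 lower and 2 not passed of 5 tested. Farther along the same chromosome all 5 members from Ccl5 to Ccl4 (83525778 to 83664683) were lower. On chromosome 5 Cxcl1 was the higher member of a block of 4 tested from Cxcl5 to Cxcl2 (90759360 to 90905938) that held 2 lower ones. Neighbours in these blocks are paralogues, and reads that map to more than 1 of them may be split in ways the sources used here do not give.

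**Figure D4:**
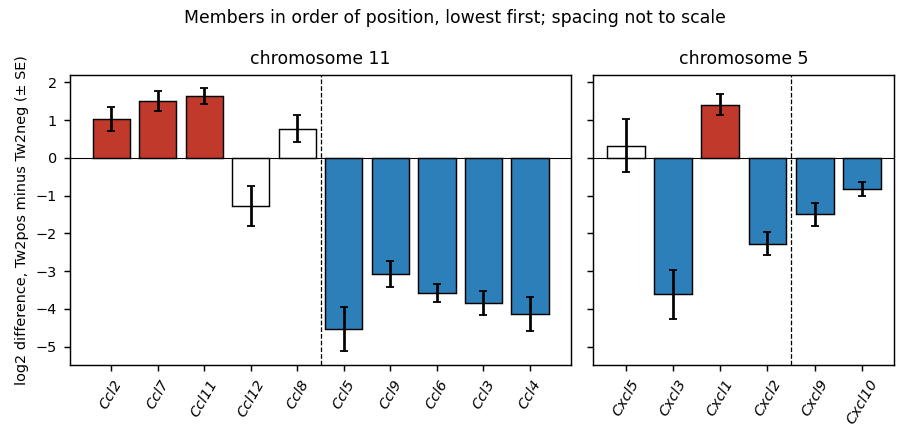
Log2 difference between Tw2pos and Tw2neg (y axis, bars from 0, error bars SE) of tested members of 2 chromosomes in order of position; red passed as higher, blue passed as lower, white did not pass, and dashed lines part separate blocks. Ccl2, Ccl7 and Ccl11 stand above 0 beside a block from Ccl5 to Ccl4 that lies between −4.54 and −3.09.

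The remaining 14 members were below the minimum mean. Of these, 6 had no read in any of the 4 libraries: the lymph node ligands Ccl21a, Ccl21b and Ccl21c, and Ccl27b, Cxcl15 and Ccl26. The other 8 (Ccl1, Ccl19, Ccl20, Ccl28, Cxcl11, Cxcl17, Cxcr1 and Ccr10) had at most 11 reads in any library. Ccl19 and the Ccl21 genes encode the ligands of Ccr7, so its ligands were at or near 0 where Ccr7 reached 6729 normalised counts in an unlabelled library. The Ccl21 genes, and Ccl27a with Ccl27b, are near-identical copies whose reads may have been lost or merged in counting. Ccl25 and Ccl27a, of thymus, gut and skin, were tested at low levels, with up to 21.7 and 43.4 normalised counts, and did not pass.

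Other genes of the pathway went both ways in this fit, where 18.7% of all genes were higher and 20.0% lower. Of 29 genes of receptor signalling, 19 were lower and 2 higher in Tw2pos. The lower ones were led by the leukocyte phospholipase Plcb2 (−6.38) and included Rac2, Dock2 and Vav1, the motility machinery of blood cells, whereas the broadly expressed Gnai2 was at −0.32 (adjusted p = 0.328) and the inhibitory G protein subunit Gnai1 rose by 2.73. Of 19 genes for processing and presentation, 9 were higher and 3 lower. Mmp2, a protease that trims chemokines, rose by 2.39 from 8512 and 5499 to 32426 and 39561 normalised counts, and the heparan sulfate carrier Sdc2 by 1.99. The 3 lower ones were proteases of neutrophils and other leukocytes, Ctsg (−6.48), Elane (−5.92) and Mmp9 (−5.04). Of 22 genes of chemokine induction, 4 were higher, 7 lower and 11 did not pass. That list holds inhibitors as well as inducers, so its counts give no direction of induction. Among its genes were the transcription factor Cebpd at 1.83, the interleukin Il6 at 5573 and 6324 normalised counts in Tw2pos against 2228 and 1725, and Il1b at −5.33. Of 8 other ligands and receptors of chemoattractants, 2 were higher, chemerin (Rarres2, 1.86) and its receptor Cmklr1 (1.67), and 3 were lower. The NF-kappaB subunits Nfkb1 (−0.56, adjusted p = 0.209) and Rela (−0.12, adjusted p = 0.667) did not pass. Of the genes named in this paragraph and in the next comparison, Rac2, Dock2, Vav1, Sdc2, Nfkb1, Rela, Relb and Nfkb2 were picked after their values were seen.

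The comparison of the 2 labelled populations, which the series design names, was made on log2 of CPM plus 1 over 6 libraries, with the single Pax7 libraries assumed to vary like the Twist2 ones. Of the 27 members in that table, 8 were higher in Tw2pos, 4 lower and 15 did not pass, where 58.8% of all genes passed, 33.7% of the 4939 genes as higher and 25.1% as lower. All genes of that table were at least 2-fold away from Tw2neg by the authors' deposited table and had at least 10 CPM in 3 or more libraries, so a gene read only in Pax7pos could not be among them. The count of higher members rose without either Tw2neg replicate, and so did that of all higher genes, in fits whose spread rests on the Tw2pos pair alone. The split of all calls was 1665 higher and 1240 lower, against 1393 and 1555 with TMM factors and 862 and 998 after quantile normalization, with a median over all genes of 0.41, 0.09 and −0.15. The log2 differences that follow are to be read against a shift of that size.

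Cxcl12 was among the ligands that were higher in Tw2pos. It stood at 318 and 306 CPM in the Tw2pos libraries and 32.0 CPM in Pax7pos, a log2 difference of 3.25 (SE 0.53, limma adjusted p = 0.0020). Its receptor Cxcr4 went the other way, at 8.86 and 10.9 CPM in the Tw2pos libraries against 196 CPM, or 1880 reads, in Pax7pos (−4.19, SE 0.42, adjusted p = 0.000224). Ligand and receptor stood on opposite sides of this comparison, with Pax7pos the lower for Cxcl12 and the higher for Cxcr4. The fibro-adipogenic markers were higher in Tw2pos than in Pax7pos for 12 of 13 genes, and their part in the ligand differences was not tested. Cxcl14 was at 218 and 259 against 24.7 CPM (3.22, adjusted p = 0.00023), Ccl11 at 257 and 315 against 57.8 (2.28, adjusted p = 0.0012) and Ccl7 at 119.9 and 180.5 against 42.9 (1.75, adjusted p = 0.0062). Ackr1 had 47.3 and 60.5 CPM in Tw2pos and 6.37 CPM in Pax7pos (2.89, adjusted p = 0.00081). The endothelial markers, a cell type in which Ackr1 is known, were also higher in Tw2pos for 11 of 14 genes, with sums of 1038 and 752 CPM against 246, and their part in the Ackr1 difference was not tested. Ccl8, at 13.7 and 21.5 against 3.13 CPM, passed (2.14, adjusted p = 0.0060) but not after quantile normalization (0.75, 0.253) or without Tw2pos replicate 2 (1.83, 0.0623). Cxcl13 passed (adjusted p = 0.0265) with 4.12 and 11.7 CPM against a single read in Pax7pos, and not after quantile normalization (adjusted p = 0.295) or with a pseudocount of 10 (0.242). Cxcl16, at 44.2 and 50.5 against 23.0 CPM, passed (1.01, adjusted p = 0.0331) but lost the call in 7 of 11 other settings, including TMM factors (0.65, 0.139), edgeR (0.70, 0.151) and the fits without Tw2pos replicate 1 (1.10, 0.161) or 2 (0.91, 0.247).

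The neutrophil-attracting ligands Cxcl1, Cxcl2 and Cxcl3 were higher in Pax7pos than in Tw2pos. Cxcl1 reached 1687 CPM in Pax7pos, above its 704 and 816 CPM in Tw2pos and its 1179 CPM in Pax7neg, with a difference of −1.15 between the labelled groups (SE 0.40, limma adjusted p = 0.0387). That call was lost without Tw2pos replicate 1 (−1.05, 0.194) or 2 (−1.26, 0.114). Cxcl2 stood at 151 CPM in Pax7pos and at 28.4 and 43.2 in Tw2pos (−2.07, adjusted p = 0.0036), and Cxcl3 at 31.1 against 0.412 and 1.66 CPM (−4.05, adjusted p = 0.00070). Unlike Cxcl1, both were lower in Pax7pos than in Pax7neg, where Cxcl2 stood at 394 and Cxcl3 at 46.7 CPM. These 3 ligands were all lower in Tw2pos than in Pax7pos, and any part of the marked promoter element in this was not tested. Marker sums of macrophages and neutrophils were lower in Pax7pos than in either Tw2pos library, at 186 CPM for macrophages against 272 and 368 in Tw2pos and 21.3 CPM for neutrophils against 47.1 and 31.3. Among 19 genes of the induction list, 10 did not pass and 6 were lower in Tw2pos than in Pax7pos, where 25.1% of all genes were lower; the 6 included the NF-kappaB genes Nfkb1 (146 and 233 against 1068 CPM, −2.53), Relb (−2.38), Rela (−2.10) and Nfkb2 (−1.62), and 3 were higher, led by Il6 (450.1 and 511 against 42.8 CPM, 3.45). Any part of these induction genes or of the marker sums in the ligand values was not tested. Ccl2, at 125 and 184 CPM against 77.8, did not pass (limma adjusted p = 0.0809). The leukocyte receptors Ccr1, Ccr2, Ccr6, Ccr7, Cxcr5 and Cxcr6 were at or below 5.26 CPM in every labelled library of both lines, and none passed.

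**Figure D5:**
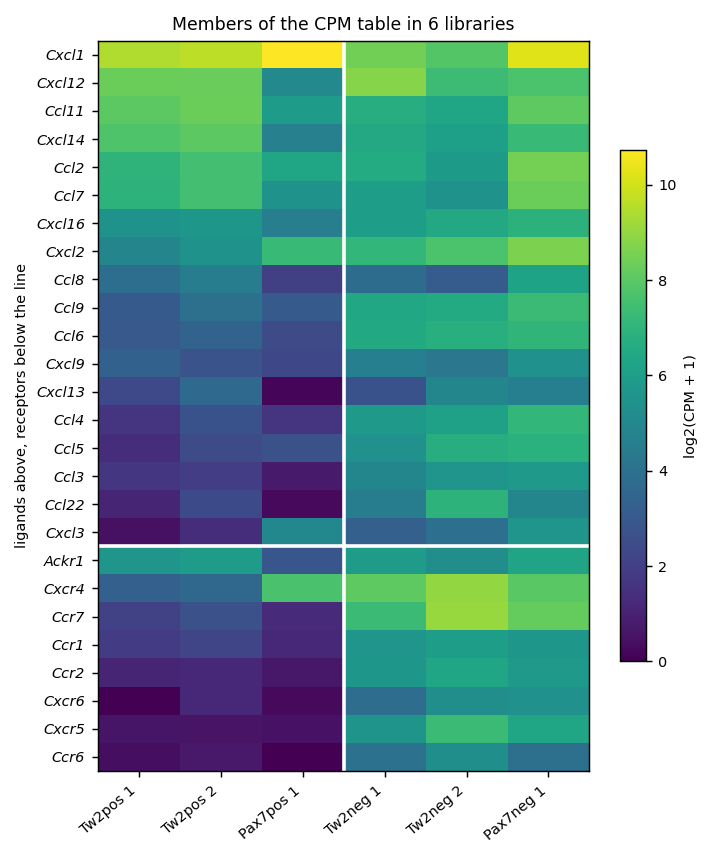
Log2 of CPM plus 1 (colour) of 26 of the 27 members of the CPM table in the 6 libraries, ligands above and receptors below the white line, labelled libraries to the left of the vertical line. Cxcr4 is dark in both Tw2pos libraries (8.86 and 10.9 CPM) and bright in Pax7pos (196 CPM), while the other signalling receptors plotted are dark in all 3 labelled libraries.

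Within the Pax7 line there was 1 library a group and no test. By a size of at least 2-fold on CPM plus 10, 24 of the 27 members were lower in Pax7pos than in Pax7neg and 0 were higher, where 51.3% of the 4939 genes passed that size, 33.0% as lower and 18.3% as higher. A gene below 10 CPM in all 3 labelled libraries could enter this table only through the unlabelled ones, so its lower direction was fixed by the filter. Among such members were Ccl3, Ccl4, Ccl5, Ccl6, Ccr1, Ccr2, Ccr6, Ccr7, Cxcr5 and Cxcr6. The count of lower members is therefore in part set by that filter. The members that stayed within 2-fold were Cxcr4 (196 and 248 CPM), Cxcl1 (1687 and 1179) and Cxcl3 (31.1 and 46.7). Ccr6 had no read in Pax7pos, where 3 reads would have been 0.313 CPM, and 14.7 CPM in Pax7neg. Ccl7 was at 42.9 against 319.9 CPM, Ccl2 at 77.8 against 352 and Cxcl12 at 32.0 against 203. Fibro-adipogenic markers summed to 39207 CPM in Pax7neg and 5279 in Pax7pos, the macrophage markers to 7755 and 186, and their part in these values was not tested.

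Between the unlabelled cells of the 2 lines 0 members passed the limma test at an adjusted p under 0.05, with 9 members at an unadjusted p under 0.05. In this comparison 0.0607% of the 4939 genes passed, 3 genes against 769 at an unadjusted p under 0.05. Several ligands were nonetheless lower in both Tw2neg libraries than in Pax7neg. Ccl7 was at 61.1 and 43.0 against 319.9 CPM (−2.62, limma adjusted p = 0.0545), Ccl8 at 12.8 and 7.73 against 74.6 (−2.78, 0.0795), Ccl2 at 96.6 and 56.4 against 352 (−2.24, 0.0937) and Cxcl1 at 345 and 233 against 1179 (−2.05, 0.0998). With TMM factors these 4 passed (adjusted p = 0.0160, 0.0302, 0.0386 and 0.0442). In that fit 60 of the 4939 genes passed, 33 of them as lower. Whichever Twist2 library was left out, their differences stayed between −3.11 (Ccl8) and −1.77 (Cxcl1). The spread of those fits rests on 1 pair of libraries, and calls over all genes rose in them too. The fibro-adipogenic marker sum was 18714 and 10487 CPM in Tw2neg and 39207 in Pax7neg, and its part in these values was not tested.

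The effect of the label, labelled minus unlabelled cells, differed between the lines for 9 of the 27 members, 8 with a higher and 1 with a lower effect in the Twist2 line. Over the 4939 genes 35.7% passed, where 23.2% had a higher and 12.5% a lower effect there, and this comparison shares its libraries with those above. Members, at 9 of 27, thus did not pass more often than genes at large. Ccl11 stood at 257 and 315 CPM in Tw2pos, 103 and 79.4 in Tw2neg, 57.8 in Pax7pos and 267 in Pax7neg. It was thus the higher in labelled cells of the Twist2 line (1.64 on the log2 scale) and the lower in those of the Pax7 line (−2.19), a difference of 3.83 (limma adjusted p = 0.00093). Ccl7 (1.50 and −2.87, difference 4.37, adjusted p = 0.00094), Cxcl14 (1.64 and −2.55, 4.18, 0.00056) and Ccl2 (1.03 and −2.16, 3.19, 0.0057) had the same pattern. Cxcr4 was the member with the lower effect: its label difference was −5.08 in the Twist2 line and −0.33 in the Pax7 line (−4.74, adjusted p = 0.0011). Cxcl1 was higher in labelled cells of both lines, by 1.42 and 0.52, and did not pass. The effects of Ccr2, −4.81 and −5.10, and of Cxcr5, −5.84 and −5.85, lay close together in both lines. Labelled values of both genes were near 0, at 0.627 CPM for Ccr2 and 0.418 CPM for Cxcr5 in Pax7pos. Their effect sizes were thus set largely by the unlabelled level and the pseudocount, and nothing is drawn from their closeness. The higher count of 8 and the lower count of 1 both rose without either Tw2neg replicate, and so did those of all genes. The Cxcl16 difference of 1.68 lost its call without Tw2pos replicate 1 (1.77) or 2 (1.58). It also did not pass with TMM factors (1.20, adjusted p = 0.0758) or after quantile normalization (1.21, adjusted p = 0.148).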

How the data were processed

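RNA of sorted muscle cells was sequenced in 6 libraries. Per the submitters' processing notes, the tools were TopHat2 2.0.0 and DESeq2 1.6.3 with the mouse build GRCm38. No source used here gives the counter, the annotation or the strand. The authors deposited normalised counts, a signal equal to reads divided by a size factor, for the Twist2 libraries, and a table of CPM values with log2 fold changes from Tw2neg, which equal the log2 ratio of the deposited CPM plus 1. Whole reads were recovered from the values of all 6 libraries (100% whole within 0.01; in Pax7neg the smallest value is several reads), and CPM of the Twist2 libraries was rebuilt from them.

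The main test was limma 3.58.1 with a variance trend on log2(value + 1), with p-values adjusted over all genes by the Benjamini-Hochberg method, on genes with a mean of at least 10 normalised counts or all 4939 genes of the CPM table. Fold changes on this scale understate the change of low genes. The limma test, and edgeR 4.0.16 and DESeq2 1.42.0 on recovered reads as alternatives, ran in R 4.3.3, and the fits were tested on simulated data. Positions and exon lengths are from GENCODE M21 and promoter windows from RefSeq (GRCm38.p6), with a window for 45 of the 61 members. Members of every kind could be named; of the other lists, up to 3 genes with the highest mean and the largest passing change in each direction, with exceptions stated. Members and lists were chosen with earlier results of these data known. No fold is given where a group held 3 reads or fewer over its libraries. The values of 1 receptor, included in the counts, are not reported here.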

Additional observations from a re-analysis of the deposited data

Results flagged for a closer look

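The effect of the label differed between the Twist2 and the Pax7 line for 9 members, by limma's test of the difference itself on log2 of CPM plus 1 over 6 libraries, where 35.7% of all 4939 genes passed. Members, at 9 of 27, did not pass more often than genes at large. Higher effects in the Twist2 line were those of Ccl8 (4.92, adjusted p = 0.0013), Ccl7 (4.37), Cxcl14 (4.18), Ccl11 (3.83), Ackr1 (3.52, adjusted p = 0.0026), Ccl2 (3.19), Cxcl12 (2.87, adjusted p = 0.0226) and Cxcl16 (1.68, adjusted p = 0.0293). The Cxcl12 difference did not pass after quantile normalization (2.12, adjusted p = 0.122), nor did that of Cxcl16 there (1.21, 0.148), with TMM factors (1.20, 0.0758) or without Tw2pos replicate 1 (1.77, 0.126) or 2 (1.58, 0.177). Cxcr4 had the lower effect (−4.74). For Ackr1 the effect was 0.16 in the Twist2 line and −3.36 in the Pax7 line, for Ccl8 0.73 and −4.19, and for Cxcl12 0.24 and −2.63. Each Pax7 group is 1 library, assumed to vary like the Twist2 libraries.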

How the results depend on the processing

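Of 30 members that passed between Tw2pos and Tw2neg and whose alternatives were tabulated, 21 kept call and direction in every setting tried, as did 8 of 12 between Tw2pos and Pax7pos and 7 of 9 for the label effect; the cause of the changes was not tested. Leaving out 1 library gave 3 to 10 members higher in Tw2pos than in Tw2neg, 6 to 14 higher in Tw2pos than in Pax7pos, 0 to 1 higher and 4 to 8 lower in Tw2neg than in Pax7neg, and 8 to 14 higher and 1 to 3 lower label effects in the Twist2 line. Quantile normalization and a mean of at least 50 CPM each left 5 members higher in Tw2pos than in Pax7pos. TMM factors gave 4 members lower in Tw2neg than in Pax7neg and 2 lower label effects, and a mean of at least 50 CPM gave 1 member lower in Tw2neg.

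Differences that had not passed turned sign between Tw2pos and Tw2neg for Ackr1 (−0.30 with library totals, −0.18 to 0.47 with a library left out), Cxcl12 (−0.22 with library totals, −0.049 after quantile normalization, −0.48 to 0.93 with a library left out), Cx3cl1 (−0.17 with library totals, −0.12 to 0.68 with a library left out) and Cxcl13 (−2.07 to 0.33 with a library left out). After quantile normalization Ccl3 (−0.0078) and Ccr7 (−0.17) turned between Tw2pos and Pax7pos, and Ccl6 (−0.085) and Ccr7 (−0.48) for the label effect.

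Over all genes, the 5470 calls between Tw2pos and Tw2neg became 2831 without Tw2pos replicate 1 and 2578 without Tw2pos replicate 2. The 2905 between Tw2pos and Pax7pos became 1860 after quantile normalization, 1501 at a mean of at least 50 CPM and 1658 and 1858 without Tw2pos replicate 1 and 2. The 3 between the unlabelled groups became 60 with TMM factors, 18 at a mean of at least 50 CPM, 1 after quantile normalization, with a pseudocount of 10 or with no variance trend, 47 and 48 without a Tw2pos library, and 1049 and 894 without a Tw2neg library. The 1764 label effects became 962 after quantile normalization, 979 at a mean of at least 50 CPM, 959 and 952 without a Tw2pos library and 3173 and 2920 without a Tw2neg library; TMM factors split them into 966 higher and 1150 lower, against 1145 and 619.

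With the replicate number as a block, 8 members were higher and 31 lower in Tw2pos than in Tw2neg, and 6627 genes passed; Cxcl16 (adjusted p = 0.0152), Ackr3 (0.0183) and Cxcl13 (0.0352) passed under the block and not in the test without it. Same-numbered Twist2 libraries deviated together with r = 0.26 across 14155 genes, but with 2 pairs and no statement in the labels the numbers do not pair the samples. The planned edgeR and DESeq2 fits over 6 libraries were not run, since the smallest Pax7neg value is several reads and the size of 1 read there is inferred; those for Tw2pos against Pax7pos used 5 libraries, a choice made after seeing the data, as was listing single members only where they passed or differed by at least 1 on the log2 scale in the CPM comparisons. With 2 libraries or 1 in a group, and few reads for many receptors in labelled cells, small differences were not detectable.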
